A study of Mus musculus with 6 samples.

Results

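The genes described here are 35 markers of spinal cord glia and interneurons, followed in dorsal root ganglia, which lie beside the cord and hold the cell bodies of sensory neurons. They fall into 5 cell classes: oligodendrocyte lineage (9 genes), astrocyte (14), inhibitory transmitter (4), interneuron transcription factor (5), and cholinergic and ventral cord (3). Every array probe whose transcript belongs to a listed symbol was taken, which gave 50 of 41086 probes and 35 of 17157 gene symbols. The ganglia came from 3 wild-type (WT) littermates and 3 dt27J mice at postnatal day 4, all C57BL/6, from 2 litters. The dt27J allele is a mutation of Dst, which encodes the cytoskeletal linker dystonin, and the series places this age before the phenotype. Each animal was hybridised to 1 single-colour array. WT 1, WT 2, dt27J 1 and dt27J 2 carry the first of 2 label dates, and WT 3 and dt27J 3 the second, which was also a second slide. The sources used here do not give the spinal levels, the number of ganglia per animal, or which animals were of which litter.

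Oligodendrocytes make the myelin of the central nervous system, and their precursors are specified in the ventral cord by the factors Olig1, Olig2 and Nkx2-2. Astrocytes clear glutamate, form the glial lining around vessels and secrete matrix proteoglycans. Inhibitory interneurons of the cord release GABA or glycine, and many are specified by Pax2, Lhx1 and Lhx5. A sensory ganglion holds neurons, satellite glia and Schwann cells, and its axons are myelinated by Schwann cells. Satellite glia share some genes with astrocytes, the glutamate transporter Slc1a3 among them.

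A level is given as log2 of the processed signal minus the 75th percentile of its own array, so that 0 is the signal of that percentile and a step of 1 is 2-fold. A gene is represented by its brightest probe unless another is named, and levels of different probes are not compared with each other. On each array 63.1% to 71.4% of probes were well above background, and 22 of the 35 genes were so on all 6 arrays, against 76.3% of all genes. Dst stood at 1.16, 1.44 and 1.10 in WT 1, 2 and 3 and at -1.63, -1.77 and -0.96 in dt27J 1, 2 and 3, so the groups did not overlap; it fell by 2.68 (SE 0.26, adjusted p = 0.0341, limma). The labelled tissue was checked on 12 sensory neuron genes with a probe, whose median lay between 1.86 and 3.06 on the 6 arrays and which include Calca and Tac1.

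Most of the 35 genes had a high level in WT 1 and WT 2 and a low level on the other 4 arrays, whatever the genotype of those 4. In 29 of 35 genes both WT 1 and WT 2 lay above all other arrays, against 12.9% of all genes. In 26 of them the means were also at least 2-fold apart (2.44% of all genes), and in 23 the gap between the lower of WT 1 and WT 2 and the highest other array was itself at least 2-fold (0.659% of all genes). Over the 35 genes the mean of WT 1 and WT 2 minus the mean of the other 4 arrays had a median of 2.70 on the log2 scale, with a range from -0.14 to 5.96, beside a median of 0.042 over all genes. This split of the arrays was proposed from their values, so it is described here and was not tested. In tissue RNA, fewer cells of a type and less RNA per cell cannot be told apart.

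**Figure D1:**
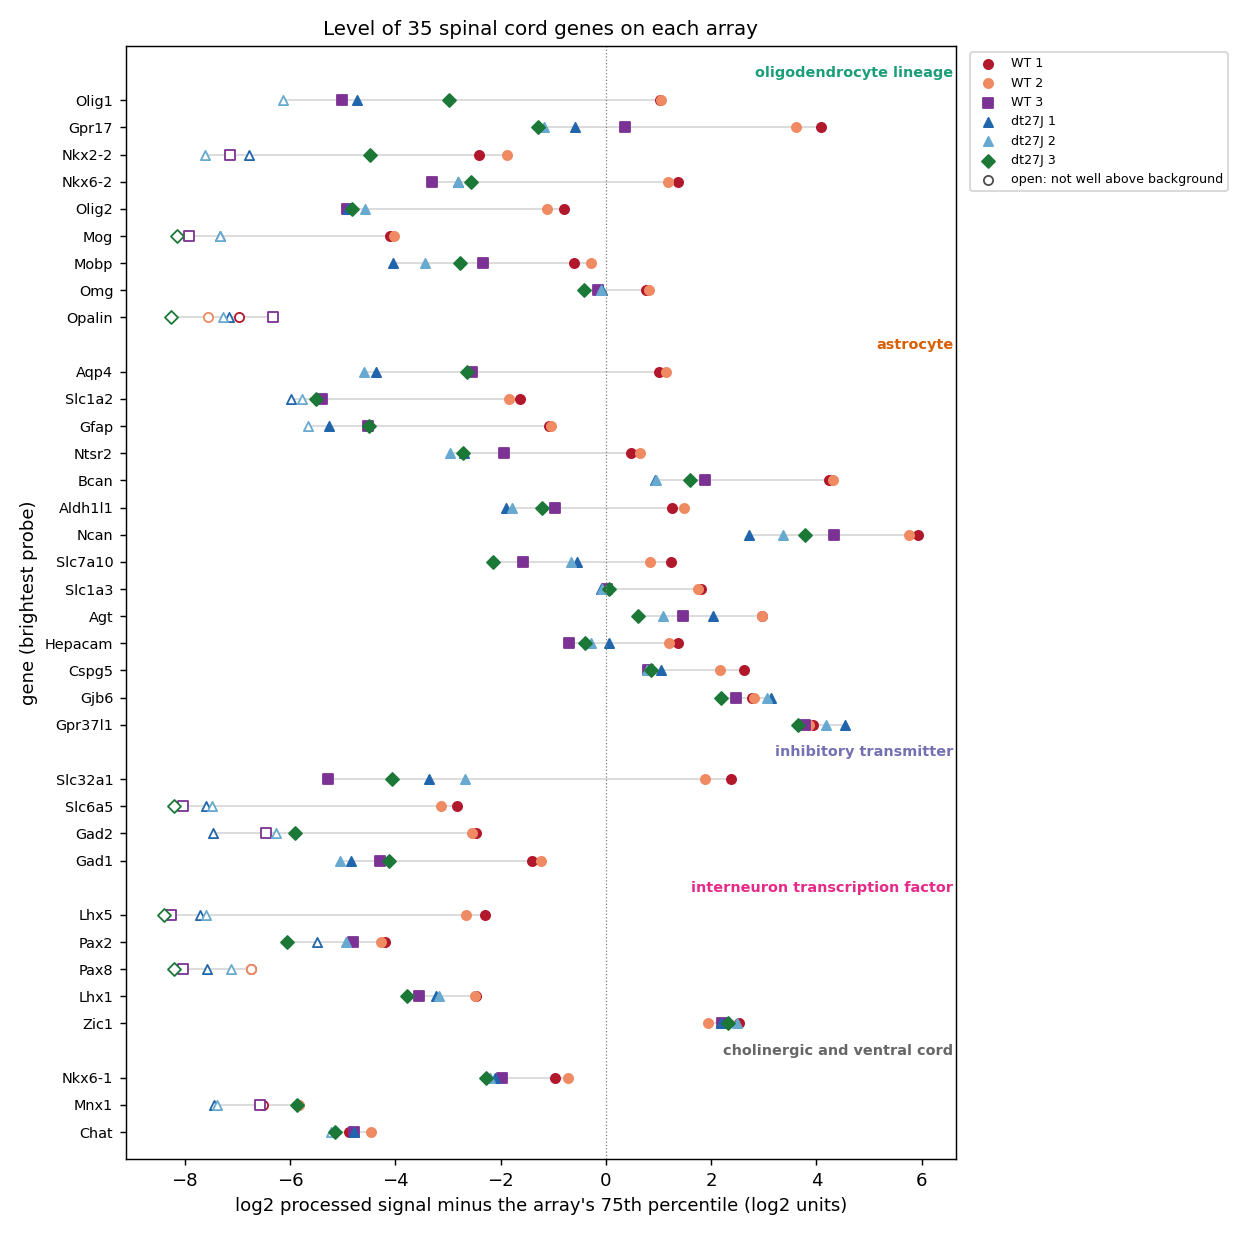
Level of each of the 35 genes on each array (x axis, level on the log2 scale relative to the 75th percentile of the array; y axis, genes by cell class, brightest probe; open symbols, not well above background). Circles (WT 1 and WT 2) lie to the right of every other symbol in 29 genes, a count that is 15 after normexp background correction. Over all 35 genes, WT 3 (squares) lies within the range of the dt27J arrays in 20, above it in 11 and below it in 4.

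The count of 29 was 29 after quantile normalization and with the authors' deposited values, 27 after normexp background correction with high local backgrounds replaced, and 15 after plain normexp, which also moved the median over all genes from 0.042 to -0.41. Of the 29 genes, 28 were well above background on both WT 1 and WT 2, and the other, Pax8, was so on no array. The count lay between 29 and 31 when any array was left out. Leaving out an array cannot lower this count, so that range is no check of it.

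Promoters of 4 genes are printed to set genes that shared the pattern beside a gene that did not. They were chosen after their values were seen, and each runs from 250 bases before to 50 bases after the RefSeq start on build GRCm38.p6. Capitals mark the only matches to the 3 motifs searched on both strands, which were CAGCTG (an E-box, palindromic), TAATTA (a homeodomain core, palindromic) and ACAATG (a Sox core, CATTGT on the other strand). Olig2 (chr16:91225300-91225599, plus strand), Slc1a2 (chr2:102706188-102706487, plus strand) and Slc32a1 (chr2:158610508-158610807, plus strand) were high in WT 1 and WT 2, and Zic1 (chr9:91365719-91366018, minus strand) was not.
Olig2: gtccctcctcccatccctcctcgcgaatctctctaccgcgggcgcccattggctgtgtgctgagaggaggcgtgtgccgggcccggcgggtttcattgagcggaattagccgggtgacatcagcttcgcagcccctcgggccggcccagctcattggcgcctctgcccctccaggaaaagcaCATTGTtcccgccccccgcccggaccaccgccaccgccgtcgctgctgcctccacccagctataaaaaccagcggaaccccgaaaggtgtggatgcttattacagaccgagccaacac
Slc1a2: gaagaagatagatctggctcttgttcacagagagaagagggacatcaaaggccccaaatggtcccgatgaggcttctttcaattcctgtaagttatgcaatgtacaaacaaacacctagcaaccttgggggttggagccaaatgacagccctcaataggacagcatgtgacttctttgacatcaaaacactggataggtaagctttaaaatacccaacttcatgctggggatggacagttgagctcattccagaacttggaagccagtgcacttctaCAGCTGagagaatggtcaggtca
Slc32a1: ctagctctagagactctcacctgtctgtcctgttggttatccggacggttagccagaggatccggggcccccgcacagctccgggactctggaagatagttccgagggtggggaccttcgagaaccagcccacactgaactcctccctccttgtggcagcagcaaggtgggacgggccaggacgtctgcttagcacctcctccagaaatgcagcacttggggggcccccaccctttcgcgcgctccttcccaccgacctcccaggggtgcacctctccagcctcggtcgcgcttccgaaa
Zic1: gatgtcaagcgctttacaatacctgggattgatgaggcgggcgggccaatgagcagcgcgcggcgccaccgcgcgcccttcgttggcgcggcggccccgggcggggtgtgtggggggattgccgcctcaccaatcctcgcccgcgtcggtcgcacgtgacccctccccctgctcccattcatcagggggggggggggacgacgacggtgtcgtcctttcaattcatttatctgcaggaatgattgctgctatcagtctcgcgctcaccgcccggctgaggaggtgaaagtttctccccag
Olig2 holds ACAATG, read on the other strand, Slc1a2 holds CAGCTG, and the windows of Slc32a1 and Zic1 hold none of the 3. A window was at hand for 29 of the 35 genes, and not for Aqp4, Cspg5, Gpr17, Lhx5, Olig1 and Omg. CAGCTG was in a window of 6 of these 29 genes and in 16.3% of all 32851 windows, TAATTA in 1 (Slc1a3) and in 5.29%, and ACAATG in 2 (Olig2 and Slc6a5) and in 12.6%. These matches describe the letters of the windows and show no binding.

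Oligodendrocyte lineage genes were higher in WT 1 and WT 2 than on the other arrays in 8 of 9 cases, with a median difference of 3.84. Olig1, a transcription factor of oligodendrocyte precursors, stood at 1.02 and 1.05 in WT 1 and WT 2, at -5.02 in WT 3 and at -4.72, -6.13 and -2.99 in dt27J 1, 2 and 3. Its partner Olig2, which also specifies motor neurons, stood at -0.80 and -1.12, at -4.91 and at -4.90, -4.58 and -4.83 on the same arrays. For both factors the WT 3 array lay among the dt27J arrays or just below them, and the means were 14.4-fold apart for Olig2 and 53.8-fold for Olig1. Olig1 was not well above background in dt27J 2, and with that array set to its floor, the lowest signal of any probe measured above background on it, the difference was 46.7-fold. A second, dimmer Olig2 probe was well above background on no array.

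Nkx2-2 and Nkx6-2, homeobox factors of the ventral cord and of oligodendrocytes, had the same shape. Nkx6-2 stood at 1.38 and 1.17 in WT 1 and WT 2, at -3.30 in WT 3 and at -2.81, -2.82 and -2.57 in the dt27J animals, a 17.7-fold difference. Nkx2-2 stood at -2.40 and -1.89 in WT 1 and WT 2 and at -4.48 in dt27J 3, and was not well above background on the remaining 3 arrays. Gpr17, a receptor of differentiating oligodendrocytes, stood at 4.08 and 3.60, at 0.36 in WT 3 and at -0.59, -1.17 and -1.30 in dt27J 1, 2 and 3. Unlike in the 4 transcription factors, WT 3 lay above every dt27J array for Gpr17, by less than the gap between WT 3 and WT 2.

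Among myelin genes, Mobp, a structural protein of central myelin, stood at -0.60 and -0.28 in WT 1 and WT 2, at -2.33 in WT 3 and at -4.04, -3.43 and -2.77 in the dt27J animals. That is a difference of 2.70, and its other probe, not well above background in dt27J 1 and 2, gave 4.90 with those arrays set to their floor. Mog, found on the outer surface of central myelin, was well above background only in WT 1 (-4.10) and WT 2 (-4.01), and was at least 3.39-fold higher there, though the difference turned to -1.04 after normexp, where the class median was 0.81. This bound sets the mean of WT 1 and WT 2 against the floor of each other array, or Mog itself where higher. Omg, a myelin glycoprotein that neurons also make, differed less, at 0.76 and 0.82 against -0.42 to -0.07. Opalin, a marker of mature oligodendrocytes, was well above background on no array.

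Astrocyte genes followed in 12 of 14 cases, with a median difference of 2.29. Aqp4, the water channel of astrocyte endfeet, stood at 1.02 and 1.15 in WT 1 and WT 2, at -2.54 in WT 3 and at -4.36, -4.59 and -2.63 in dt27J 1, 2 and 3. Slc1a2, the main glutamate transporter of astrocytes, stood at -1.63 and -1.83, at -5.39 in WT 3 and at -5.50 in dt27J 3, and was not well above background in dt27J 1 and 2. Gfap, the intermediate filament of astrocytes, stood at -1.08 and -1.04, at -4.52 in WT 3 and at -5.26 and -4.50 in dt27J 1 and 3, and was not well above background in dt27J 2. The means were 24.5-fold apart for Aqp4, and with the dim arrays set to their floor 13.0-fold for Slc1a2 and 14.3-fold for Gfap. On all 3 genes WT 3 and dt27J 3 lay within 0.11 of each other. All 3 Aqp4 probes showed the split, the others being well above background on 2 of the other 4 arrays.

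The proteoglycans of the perineuronal matrix lay above the 75th percentile on every array and still split. Ncan stood at 5.93 and 5.76 in WT 1 and WT 2, at 4.32 in WT 3 and at 2.71, 3.36 and 3.78 in dt27J 1, 2 and 3, a 4.92-fold difference. Bcan stood at 4.23 and 4.32, at 1.88 and at 0.94, 0.95 and 1.60, a 7.64-fold difference. In both, the second-date arrays lay between the remaining dt27J arrays and the pair WT 1 and WT 2. Cspg5, a transmembrane proteoglycan, differed by 1.52.

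Slc1a3, which satellite glia also make, stood at 1.81 and 1.75 in WT 1 and WT 2, at 0.03 in WT 3 and at -0.10, -0.07 and 0.06 in the dt27J animals. The other 4 arrays thus lay within a narrow band (SD 0.076), and the difference was 3.48-fold. The folate enzyme Aldh1l1 differed by 2.84, the neurotensin receptor Ntsr2 by 3.14, the amino acid transporter Slc7a10 by 2.27, angiotensinogen (Agt) by 1.67 and the adhesion protein Hepacam by 1.61. Of the 14 astrocyte genes, 2 did not split. Gjb6, connexin 30, stood at 2.78 and 2.80 in WT 1 and WT 2, at 2.48 in WT 3 and at 3.14, 3.06 and 2.18 in dt27J 1, 2 and 3, and the receptor Gpr37l1 at 3.94 and 3.87, at 3.79 and at 4.54, 4.18 and 3.66. In both genes WT 1 and WT 2 lay inside the range of the dt27J arrays.

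All 4 inhibitory transmitter genes were higher in WT 1 and WT 2, with a class median of 4.43 that was 2.00 with the authors' deposited values and 0.15 after normexp. Slc32a1, the vesicular transporter of GABA and glycine, stood at 2.38 and 1.88 in WT 1 and WT 2, at -5.27 in WT 3 and at -3.36, -2.67 and -4.06 in dt27J 1, 2 and 3. That is a 62.4-fold difference, in which WT 3 was the lowest of the 6 arrays. Gad1, a GABA-synthesizing enzyme, stood at -1.40 and -1.24, at -4.29 and at -4.85, -5.04 and -4.11, and its second probe gave nearly the same difference (2.96 beside 3.25). Gad2, the other such enzyme, stood at -2.47 and -2.55 in WT 1 and WT 2 and at -5.91 in dt27J 3. It was not well above background elsewhere. The floor was lower on the second-date arrays (-6.14 in WT 3, -6.33 in dt27J 3) than in dt27J 1 (-5.49) and dt27J 2 (-5.31). Slc6a5, the neuronal glycine transporter, was well above background only in WT 1 (-2.83) and WT 2 (-3.13), at least 7.16-fold higher there. After normexp the difference of Gad2 turned to -0.19 and that of Slc6a5 to -0.50.

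Interneuron transcription factors were mixed, with a median difference of 0.99 that turned to -0.63 after normexp. The 0.99 is the value of Pax8, and with members above background only the median was 1.03. Lhx5, a LIM factor of dorsal inhibitory neurons, was well above background only in WT 1 (-2.30) and WT 2 (-2.66), at least 10.1-fold higher there, and its difference turned to -0.17 after normexp. Lhx5, Mog and Slc6a5 were the 3 of the 35 genes above background on WT 1 and WT 2 alone, against 0.0816% of all genes, and Opalin and Pax8 were so on no array. Lhx1, which acts beside it, stood at -2.47 and -2.49, at -3.56 and at -3.23, -3.17 and -3.78, and Pax2 at -4.18 and -4.27, at -4.81 in WT 3, at -4.93 in dt27J 2 and at -6.06 in dt27J 3, with dt27J 1 not well above background. Lhx1 and Pax2 thus split by about 2-fold only. Zic1, a zinc finger factor of the dorsal cord, stood at 2.53 and 1.94 in WT 1 and WT 2, at 2.21 in WT 3 and at 2.19, 2.50 and 2.32 in the dt27J animals, so that WT 1 was the highest and WT 2 the lowest array.

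Of the 3 cholinergic and ventral cord genes only Nkx6-1, a factor of ventral progenitors and motor neurons, separated WT 1 and WT 2 from the rest. It stood at -0.97 and -0.71, at -1.97 in WT 3 and at -2.10, -2.20 and -2.29 in dt27J 1, 2 and 3, a 2.46-fold difference. Chat, the acetylcholine-synthesizing enzyme of motor neurons, stood at -4.87 and -4.46, at -4.79 in WT 3, at -4.78 in dt27J 1 and at -5.14 in dt27J 3, and was not well above background in dt27J 2. Mnx1, the motor neuron homeobox factor, was well above background in dt27J 3 alone (-5.87). It read -5.82 in WT 2, below that array's floor of -5.37, while the floor of dt27J 3 was -6.33. The call thus does not set dt27J 3 apart in level. The class median of 0.64, which is the value of Mnx1, turned to -1.22 after normexp.

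Between the genotypes, 1 of the 27 genes tested fell and none rose by the adjusted test. That is 1 of 37 member probes tested, a share close to that of all probes. Of all 26248 probes tested, 838 passed (3.19%), 494 lower (1.88%) and 344 higher (1.31%) in dt27J, a balance that turned to 440 lower and 537 higher after quantile normalization and to 561 and 614 with the authors' deposited values. The test took probes well above background in all 3 animals of at least 1 genotype, which held for 27 of the 35 genes, 5 of them through the WT arrays only, a way of passing that favours a lower dt27J value. Nkx2-2, Mog, Opalin, Gad2, Slc6a5, Pax8, Lhx5 and Mnx1 were not tested. At an unadjusted p under 0.05 (limma), 26 of 37 tested probes were lower and 1, the second Gjb6 probe, higher. Over all 26248 tested probes 7270 were under it, both directions together. The members were listed with results of these arrays known, so their count is a description and no test.

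Gpr17 was the gene that fell, by 3.70 (SE 0.61, adjusted p = 0.0454, limma, n = 3 per genotype). The change was -4.72 within the first date and -1.66 within the second, and with WT 3 alone against the 3 dt27J arrays, with no date block, it was -1.38. The adjusted p was 0.248 without WT 1, 0.160 without WT 2, 0.184 without dt27J 1 and 0.0828 without dt27J 2. It was 0.00259 without WT 3 and likewise without dt27J 3, which both leave the genotype contrast to the first date (-4.72). With array weights it was 0.000537. It was 0.0776 without the date as a block, 0.0660 with a filter on 2 arrays and 0.100 with no filter on dim probes. The next genes were Ntsr2 (-2.52, adjusted p = 0.0526), Pax2 (-1.08, adjusted p = 0.0543) and Slc7a10 (-1.28, adjusted p = 0.0574). Olig1 had a similar mean change (-3.63) and an SE of 1.58 (adjusted p = 0.193). With WT 1 and WT 2 left out and the date block dropped with them, the change of 8 genes turned positive, among them Olig1 at 0.41 and Slc32a1 at 1.91, which stood at 2.03 and 1.21 within the second date. In that setting 0 of the members passed (2 probes at an unadjusted p under 0.05), but the spread came from the dt27J arrays alone, with the lone WT 3 assumed to vary like them.

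Set apart by date, the difference between dt27J and WT was large on the first date and near that of all genes on the second. Within the first date (2 arrays per genotype) the median over the 35 genes was -3.21, with 31 of 35 negative, beside -0.036 and 52.7% over all genes. Within the second date (1 array per genotype, with no replicate check) it was -0.16, with 22 of 35 negative, beside -0.16 and 61.4%. The second-date median of the 35 genes is the value of Pax8, which was well above background on no array. Some of the negative genes, such as Mog, Slc6a5 and Lhx5, were likewise not well above background on either second-date array. By class the first-date medians were -3.78 for the oligodendrocyte lineage, -2.34 for astrocytes, -4.46 for inhibitory transmitter genes, -0.72 for interneuron factors and -1.24 for the ventral cord genes. The second-date medians were -0.23, -0.19, 0.36, -0.16 and -0.32. Of these, -0.23 is the value of Mog and -0.16 that of Pax8, neither well above background on a second-date array.

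**Figure D2:**
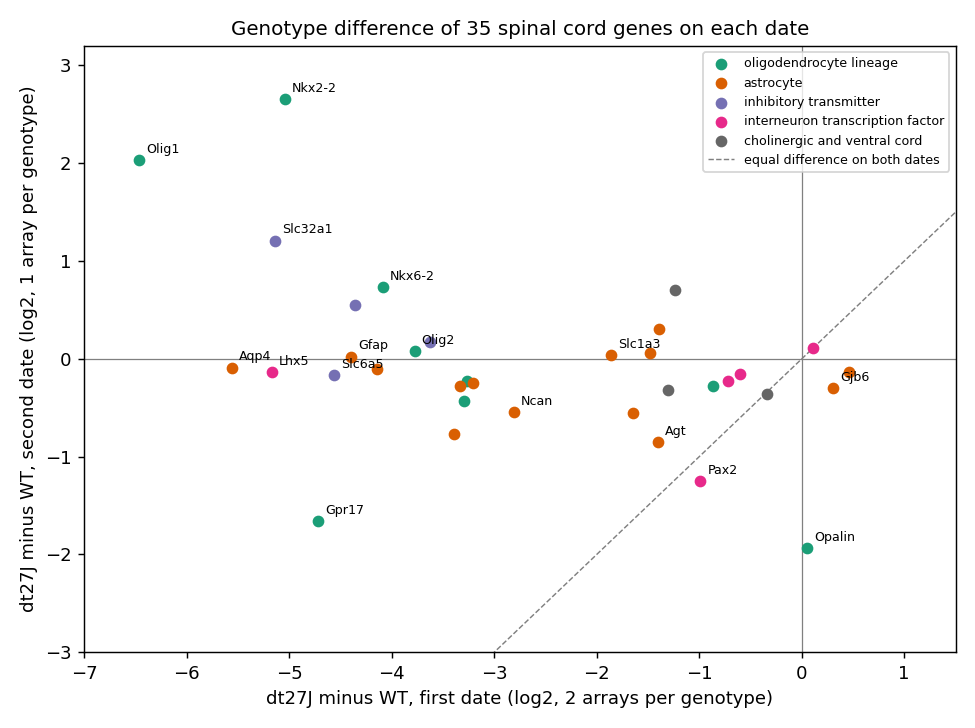
The dt27J minus WT difference of the 35 genes on each date (x axis, first date, 2 arrays per genotype; y axis, second date, 1 array per genotype; both log2; dashed line, equal differences). Most points lie far left of 0 and near 0 on the y axis, with medians of -3.21 and -0.16. The second median is the value of Pax8, which was well above background on no array.

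A test of whether the genotype difference changed with the date called 15 of 37 tested member probes, which stand for 11 of 27 genes, all with a higher dt27J minus WT difference on the second date. Over all tested probes 218 were called (0.831%), 94 in that direction (0.358%). The contrast sets the same WT 1 and WT 2 against the rest as the pattern seen before it, with 1 array per genotype on the second date, so these calls describe that pattern and are no independent test of it. Of the 15 probes, 9 were measured above background on every array and 6 entered through the WT arrays only. Among the oligodendrocyte genes the interaction was 3.86 for Olig2 (SE 0.38) and 4.82 for Nkx6-2 (SE 0.32), and with dim arrays set to their floor 8.08 for Olig1 and 7.87 for the second Mobp probe. Among astrocyte genes it was called for Slc1a2, Aqp4, Gfap, Aldh1l1, Ntsr2 and Bcan, with Aqp4 at 5.47 (SE 0.33). Of the inhibitory genes Slc32a1 stood at 6.35 (SE 0.53) and Gad1 at 3.80 (SE 0.33). Of the interneuron factors and ventral cord genes tested, 0 were called. Without WT 1, and likewise without WT 2, 0 probes of the whole array passed (6239 and 4634 at an unadjusted p under 0.05), and 26 and 25 of the 37 member probes had an unadjusted p under 0.05. The count of member probes was 24 without dt27J 1 and 22 without dt27J 2. The date term itself called 0 of the members (28 of all tested probes, 0.107%).

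The WT animals differed among themselves more than the pair WT 1 and WT 2 did. The median absolute difference between WT 1 and WT 2 was 0.18 over the 35 genes and at most 0.70. WT 3 lay below both in 32 of 35 genes, against 39.1% of all genes, with a median of -2.34 relative to their mean. In 20 of 35 genes WT 3 lay within the range of the 3 dt27J arrays, against 44.6% of all genes. In 11 genes WT 3 lay above that range and in 4 below it. The other 4 arrays spanned a median range of 0.94 per gene. They were not alike in every gene: dt27J 3 stood at -2.99 for Olig1, -4.48 for Nkx2-2 and -2.83 on the second Mobp probe, in each case the highest of the 4.

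Further markers of the same cell classes are given beside the 12.9% of all genes in which WT 1 and WT 2 lay above the rest. Among 18 other oligodendrocyte lineage genes with a probe, both WT 1 and WT 2 lay above the rest in 8 and below in 1, with a median difference of 0.51. Mbp and Mag, myelin genes that Schwann cells also use, differed by 0.71 and 1.07, and Bcas1 was called higher in dt27J (1.55, SE 0.29, adjusted p = 0.0483). Among 20 other astrocyte genes the count was 13 above and 0 below (median 0.76), with Aldoc, a glycolytic enzyme, at 1.68, and Mlc1, a membrane protein of astrocyte endfeet, called lower in dt27J (-2.05, SE 0.38, adjusted p = 0.0475). Among 26 other spinal interneuron genes it was 6 above and 3 below (median 0.45), with Gbx1, a homeobox factor of the dorsal cord, called lower (-1.30, SE 0.23, adjusted p = 0.0472). Of these interneuron genes 6 were never well above background. The 8 other cholinergic and motor neuron genes (2 above, 0 below) had a median of 0.42, with Isl2 called lower (-1.02, SE 0.19, adjusted p = 0.0473). Isl2 was bright on every array and did not follow the split. It stood at 6.59 and 6.38 in WT 1 and WT 2, at 6.83 in WT 3 and at 5.44, 5.53 and 5.77 in dt27J 1, 2 and 3. The 6 genes of the ependyma, the ciliated lining of the central canal, had a median of 0.90 (3 above, 0 below).

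Markers of tissues outside the cord moved differently across the same arrays. The 12 skeletal muscle genes had a median of -0.53 and -0.66 in WT 1 and WT 2, 0.58 in WT 3 and 1.34, 2.07 and 1.37 in dt27J 1, 2 and 3. WT 1 and WT 2 lay below all other arrays in 11 of the 12, against 9.59% of all genes, and Mb, Ckmt2, Tcap, Myh1 and Tnnt3 were called higher in dt27J. The part of muscle RNA in the result was not tested. The 12 sensory neuron genes had a median difference of 0.39 with 0 genes in which WT 1 and WT 2 lay above or below the rest, and Scn11a, a sodium channel of nociceptors, was called lower in dt27J (-1.20, SE 0.23, adjusted p = 0.0495). Genes of satellite glia and the Schwann lineage had a median difference of -0.32 over 10 genes (1 above, 2 below; Cdh19 and Ednrb higher in dt27J), and those of myelinating Schwann cells -0.72 over 8 (1 above, 4 below; Egr2 and Gldn higher and Fgf5 lower). The 6 microglia and macrophage genes stood at -0.18 (1 above, 0 below; Aif1 higher). These lists share no gene with the 35, and their calls rest on the same date-blocked fit as Gpr17.

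**Figure D3:**
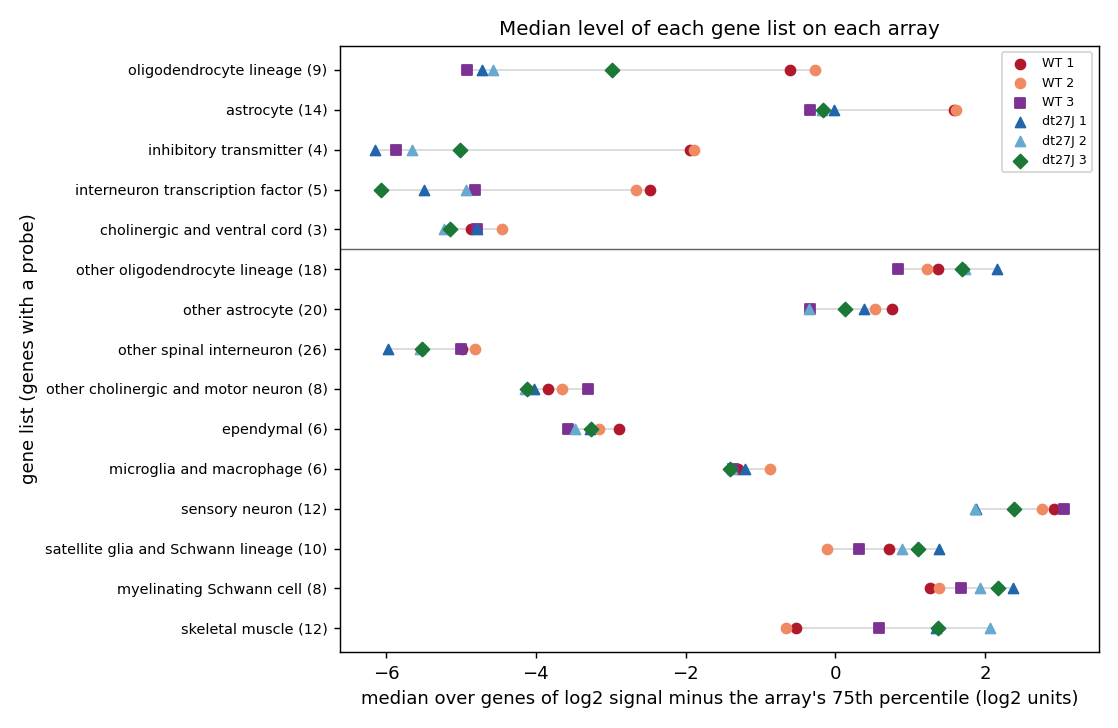
Median level of each gene list on each array (x axis, level on the log2 scale relative to the 75th percentile of the array; y axis, lists with the number of genes that have a probe; the 35 genes above the line, other lists below). Circles (WT 1 and WT 2) lie to the right for the glial, inhibitory and interneuron factor classes of the 35 genes. They also do so, by less, for the other astrocyte, other spinal interneuron and ependymal genes. They lie to the left for skeletal muscle and, by less, for myelinating Schwann cells. For the other oligodendrocyte lineage genes they lie left of the dt27J arrays (1.37 and 1.22 against 1.70 to 2.16), though the median of the per-gene differences is 0.51. For the interneuron factors and the ventral cord genes the difference turned negative after normexp.

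Genes were ranked by the gap between WT 1 and WT 2 and the other arrays, over the 13098 genes well above background on all 6 arrays, 22 of them members. Members took 8 of the top 20 places, 13 of the top 50 and 18 of the top 100, with Slc32a1 in place 1, Nkx6-2 in place 3 and Aqp4 in place 4. Other genes near the top, chosen after their values were seen, were Scrg1 (difference 4.81), the potassium-chloride cotransporter Slc12a5 of central neurons (3.42), the glutamate receptor Grm5 (3.93) and the homeobox factor Dbx2 of the neural tube (3.52). Since the 35 genes were listed with results of these arrays known, their places describe the pattern and do not test it.

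**Figure D4:**
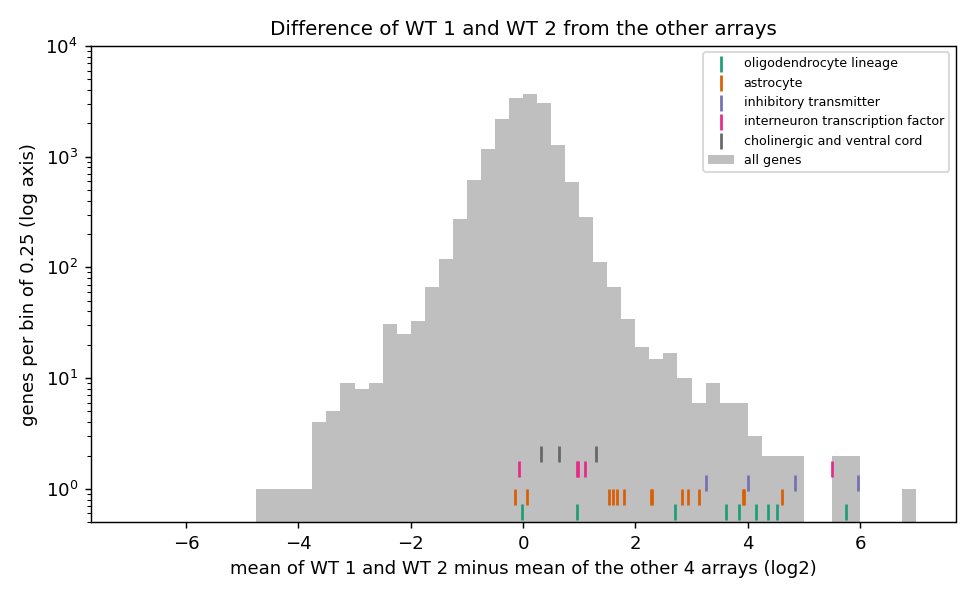
Mean of WT 1 and WT 2 minus the mean of the other 4 arrays (x axis, log2) for all 17157 genes (grey bars, genes per bin of 0.25, log y axis) and for the 35 genes (ticks, coloured by class; their height has no meaning). The bulk of genes lies near the median of 0.042 and most ticks lie to its right, around a median of 2.70 (0.71 after normexp, where all genes stood at -0.41).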

How the data were processed

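Total RNA of dorsal root ganglia from 3 WT and 3 dt27J mice was labelled with Cy3 from 300 ng and hybridised to 1 array each, per the labels' protocols. Each array is 1 animal, so p values rest on the spread between animals. In the fit of genotype and date, that spread also holds any change of the genotype difference with the date. In the interaction fit, it comes from the first-date arrays alone. Per the file headers, Agilent Feature Extraction 10.5.1.1 wrote the deposited scanner files, which give a background-subtracted processed signal, an intensity on a linear scale that is not normalized between arrays. The authors' deposited table of log2 values is centred near 0 (column medians -0.0041 to 0.0053). Set against the scanner values of 9923 probes, its slopes were 0.93 to 0.98, so a higher value is a higher signal; the sources used here do not state its normalization.

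Log2 of the processed signal minus each array's 75th percentile (a signal of 369.5 to 580) was used. Control and outlier spots were left out, repeated spots averaged, and 41086 of 41174 probes had a value on all arrays. No spot was saturated. Probes were named by transcript accession through a RefSeq table of GRCm38.p6, which named 24802; the array's annotation is of build mm9, so only promoter windows carry coordinates, and these are RefSeq's. Genotype and date were fitted with limma 3.58.1 (R 4.3.3, statmod 1.5.0) on all 6 arrays, and genotype by date in a second fit, with Benjamini-Hochberg adjustment over 26248 probes and a threshold of 0.05. Precision is limited by the number of arrays (3 residual degrees of freedom in the first fit, with 3.74 added by its prior, and fewer residual ones in the second). The script was tested on simulated data.

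Every member was named with every probe, a gene's level being its brightest probe by mean; of other lists, genes past the threshold and the 3 with the brightest probes; some of these are not reported here. The members and lists were chosen with earlier results of these data known. Alternatives were quantile normalization, normexp with an offset of 50 (on the median spot intensity, in place of the planned mean), the same with local backgrounds over 3 times the array's median set to that median, the authors' values, other filters, no date block, a replicate block, array weights, leaving out arrays, and other choices of probes or members. Same-numbered animals did not deviate together (correlations of 0.22, -0.15 and 0.062), so replicate numbers were not taken as pairs. The slide follows the date, so the date block is also the slide block.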

Additional observations from a re-analysis of the deposited data

Results flagged for a closer look

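For 15 probes of 11 genes the interaction of genotype and date passed (limma, adjusted over all 26248 tested probes), each with a higher dt27J minus WT difference on the second date, where there is 1 array per genotype. The pattern of WT 1 and WT 2 was seen before this contrast was run on genes listed for it, so the calls describe it and are no independent test. The interaction on the log2 scale was 8.50 for Olig1, 3.86 for Olig2, 4.82 for Nkx6-2 and 8.92 for the second Mobp probe in the oligodendrocyte lineage. For Mobp this rests on dt27J 1 and 2, and for Olig1 on dt27J 2, where the probe was not well above background; with those arrays set to their floor the values were 7.87 and 8.08. Among astrocyte genes it was 4.04 for Slc1a2, 5.47, 6.13 and 4.86 for the 3 Aqp4 probes, 4.42 for Gfap, 2.96 for Aldh1l1, 2.62 for Ntsr2 and 3.06 for Bcan; Slc1a2, Gfap and the Aqp4 probes at 6.13 and 4.86 were also dim in dt27J 1, dt27J 2 or both. Among inhibitory genes it was 3.80 and 3.57 for the Gad1 probes and 6.35 for Slc32a1. Without WT 1 or without WT 2 the interaction called 0 of these probes. No group was large enough for a check of single outlying arrays.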

How the results depend on the processing

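Over 838 genotype calls in the main setting, the count was 358 after normexp, 1434 after normexp with high local backgrounds replaced, 0 without a filter (8485 unadjusted), 27 with a filter on 2 arrays, 14 without the date block, 12199 with array weights, 0 to 6805 with an array left out, and 0 without WT 1, WT 2 and the date block (2038 unadjusted). The count of 0 with an array left out arose without WT 2 and without dt27J 1 (4990 and 4475 unadjusted), and it was 1 without WT 1. With the replicate block it was 2. Without WT 3, and likewise without dt27J 3, it was 6805, and 30 of the 37 member probes passed. Those settings leave the genotype contrast to the first date. Counts of member probes (1 in the main setting) were 10 with high local backgrounds replaced, 0 without a filter, with the filter on 2 arrays, without the date block, with the replicate block and without WT 1 and WT 2, 2 with a filter on all 6 arrays, 31 with array weights, and 0 to 30 with an array left out, with 0 without any of WT 1, WT 2, dt27J 1 and dt27J 2. The interaction count of 218 was 1142 after normexp, 2721 with high local backgrounds replaced, 1623 with the authors' values, 405 without a filter, 88 with the filter on 2 arrays, 994 with that on 6 and 0 to 2858 with an array left out. Its member count of 15 was 23 after either normexp setting and 0 to 24 with an array left out.

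The count of 29 genes higher in WT 1 and WT 2 was 15 after normexp. With an array left out it was 29 to 31, a change that cannot lower it. Class medians (oligodendrocyte lineage, astrocyte, inhibitory transmitter, interneuron factor, ventral cord, all 35) were 0.81, 1.73, 0.15, -0.63, -1.22 and 0.71 after normexp, where the median of all genes was -0.41. They were 1.78, 1.80, 1.42, 0.25, 0.046 and 1.44 with high local backgrounds replaced, and 2.20, 2.12, 2.00, 0.36, 0.11 and 1.81 with the authors' values. On the first date alone the ventral cord median was 1.24, the value of the dim Mnx1 probe, and that of all 35 genes 3.21. The first-date setting and the one without WT 1 and WT 2 were added after seeing the data. The mean of all probes gave 3.98 for inhibitory genes and 2.30 for all. With an array left out the medians ranged from 2.15 to 2.42 for astrocytes, 0.30 to 0.99 for the ventral cord and 2.50 to 2.97 for all 35.

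Single genes changed sign as follows, and the cause was not tested. Genotype differences of the dt27J arrays from WT 3 alone, a setting that drops WT 1, WT 2 and the date block together, stood at 0.41 for Olig1, 0.14 for Olig2, 0.57 for Nkx6-2, 0.47 for Slc7a10, 0.49 for Hepacam, 0.10 for Cspg5, 1.91 for Slc32a1 and 0.16 for Lhx1. Zic1 stood at -0.16 with array weights and -0.060 without WT 2, in a range from -0.060 to 0.28 with an array left out. Interactions stood at 0.0016 for Pax2 after normexp and 0.016 without dt27J 2 (-0.54 to 0.016 with an array left out), at -0.29 and -0.15 for Zic1 without WT 1 and without dt27J 1 (-0.29 to 0.31), and for Chat at 0.091 after quantile normalization, 0.065 with the authors' values, 0.19 without WT 1 and 0.21 without dt27J 1 (-0.23 to 0.21). Differences of WT 1 and WT 2 from the other arrays after normexp were -1.04 for Mog, -0.19 for Gad2, -0.50 for Slc6a5, -1.07 for Pax2, -1.41 for Pax8, -0.63 for Lhx1, -0.17 for Lhx5 and -1.22 for Chat. Mog, Slc6a5, Pax8 and Lhx5 were not well above background on the other 4 arrays, nor Gad2 on 3 of them. The differences of those genes are thus no measured levels. Lhx1 also turned, though well above background on all 6 arrays, and so did Pax2 and Chat, which were so on 5.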

Other observations

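Genes listed for cord interneurons did not all follow the split, and which cells made their RNA was not tested. Of the 13 other spinal interneuron genes tested, 4 were called for the interaction, against 0.831% of all probes. They were Gata2 and Gata3, transcription factors of V2b interneurons, and the neuropeptides Npy and Sst, all in the opposite direction to the 11 genes of the report. Sst still had WT 1 and WT 2 above the other arrays (difference 2.58). For Gata3 and Npy, dt27J 3 (-4.31 and -4.61) lay nearer to WT 1 and WT 2 than to dt27J 1 and 2. The dt27J minus WT difference of Npy was 4.74 within the first date and -6.51 within the second, and that of Gata2 3.72 and -2.50. Among the 13098 genes well above background on all 6 arrays, Sln and Mb, genes of striated muscle chosen after their values were seen, had the widest gap below the other arrays in WT 1 and WT 2, with differences of -3.34 and -3.73.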
